A study of Mus musculus with 6 samples.

Results

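The mitosis and spindle genes are a set of 40 genes whose proteins drive entry into mitosis, build the spindle, attach chromosomes to it and divide the cell. They were taken by symbol from a fixed list, and all 40 were found among the 49315 genes of the count table. RNA was sequenced from the medial ganglionic eminence (MGE), the ventral forebrain zone where many cortical interneurons are born, of mouse embryos at embryonic day 14. The pools labelled KO carried Nkx2.1-Cre, the Ai14 reporter and 2 floxed copies of Prdm16 (Prdm16fl/fl), and the WT pools carried Nkx2.1-Cre and Ai14 with intact Prdm16 (Prdm16+/+). Each group held 3 libraries, and each library came from 1 pool of 3 embryos (6 eminences), so a value is an average over embryos. Nkx2.1-Cre acts in the Nkx2-1 lineage, while whole dissected tissue was sequenced, including cells outside that lineage.

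Cells that divide make most mitotic transcripts in a burst late in the cell cycle and destroy the proteins at its end, so in tissue the summed RNA of these genes follows how many cells are close to division. In the MGE the dividing cells are radial glia at the ventricle and the progenitors of the subventricular zone above them. The burst is switched on by the MuvB complex with the transcription factors B-Myb (Mybl2) and FoxM1, which act through a promoter element named CHR (cell cycle genes homology region), often next to CCAAT boxes bound by NF-Y. In bulk tissue, fewer dividing cells and less RNA per dividing cell cannot be told apart.

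The shared promoter elements can be read in the sequences of the 5 members that passed the test below. Each line runs from 100 bases before the RefSeq start to 25 bases after it, 5′ to 3′ on the gene's strand (GRCm38.p6), and capitals mark a CHR core (TTTGAA or TTTAAA, on either strand) or a CCAAT box (on either strand). In Cdca8 a CHR core and a CCAAT box overlap by 1 base. The stretches lie at chr7:122159335-122159459 (Plk1, plus strand), chr7:131560270-131560394 (Bub3, plus strand), chr4:124936893-124937017 (Cdca8, minus strand), chr19:37376282-37376406 (Kif11, plus strand) and chr1:139454673-139454797 (Aspm, plus strand).
Plk1: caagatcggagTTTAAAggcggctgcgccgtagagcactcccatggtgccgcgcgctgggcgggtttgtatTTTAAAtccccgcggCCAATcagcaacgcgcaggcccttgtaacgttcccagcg
Bub3: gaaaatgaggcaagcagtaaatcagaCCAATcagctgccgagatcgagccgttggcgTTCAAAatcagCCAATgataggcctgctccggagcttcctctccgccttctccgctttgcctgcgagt
Cdca8: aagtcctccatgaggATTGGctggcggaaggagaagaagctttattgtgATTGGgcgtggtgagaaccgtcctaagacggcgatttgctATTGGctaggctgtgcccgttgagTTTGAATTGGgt
Kif11: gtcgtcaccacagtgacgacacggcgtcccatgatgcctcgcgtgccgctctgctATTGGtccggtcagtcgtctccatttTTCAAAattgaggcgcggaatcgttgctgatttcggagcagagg
Aspm: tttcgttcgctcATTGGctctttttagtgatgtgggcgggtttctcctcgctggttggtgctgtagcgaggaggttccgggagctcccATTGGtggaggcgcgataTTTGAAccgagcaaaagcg

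Over the whole list the CHR core was common. RefSeq promoter windows of 300 bases (250 before the start and 50 after) were matched for 34 of the 40 members, with 37 windows in all. A CHR core stood in 33 of the 37 windows (89.2%), against 27.6% of all 32851 promoter windows. Within 60 bases before to 40 bases after the start, 73% of the member windows held one, against 8.83% of all windows. CCAAT boxes were in 78.4% of member windows and in 37.4% of all windows, and at least 2 of them were in 56.8% and 11.7%. Windows of 129 other mitosis genes lay between, with a CHR core in 41.7% and a CCAAT box in 55.1%. Both members that were lower in the pools labelled KO and the 3 that were higher hold these letters. A match of letters is a description and not a binding site.

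The libraries held between 33188277 and 55552298 counts, and every member had at least 968 counts in every library, so all 40 passed the filter on low counts. Prdm16 itself had 53.6, 51.3 and 45.8 CPM (the count scaled to a common library size with TMM factors) in KO 1 to 3, against 55.8, 47 and 45.4 CPM in WT 1 to 3 (log2 fold change 0.02, SE 0.09, edgeR adjusted p = 0.884). These are counts over the whole gene, and the labels do not name the floxed exons, so Prdm16 does not check the genotype and each direction rests on the label. The MGE marker Nkx2-1 was present, at 637 to 861 CPM in the pools labelled KO and at 615 to 674 CPM in the WT pools. On the first principal component of all tested genes (55.9% of the variance) KO 1 was the KO library nearest to WT. It stood at -15.91, against -35.44 in KO 2, -37.18 in KO 3 and 28.27 to 30.96 in the WT libraries. On the second component (16.1%) KO 1 stood at 34.99, against -12.4 to -0.47 in the other 5 libraries. Calls gained or lost without KO 1 are given with the results below.

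The summed level of the mitosis and spindle genes differed between the groups by less than the spread between libraries. It was 4791, 5251 and 5029 CPM in KO 1 to 3 and 5566, 4837 and 4812 CPM in WT 1 to 3, with group means of 5024 ± 230 CPM and 5072 ± 429 CPM (SD, n = 3 each). The groups overlap, and the highest library of all was WT 1. The sum joins members that differ in both directions, with 22 positive and 18 negative log2 fold changes. Mki67 and Top2a, both negative, made up 1064 CPM of the KO mean and 1229 CPM of the WT mean. Of the 40 members 3 rose (Plk1, Bub3 and Cdca8), 2 fell (Kif11 and Aspm) and 35 did not pass at an edgeR adjusted p under 0.05. Over all 18079 genes tested, 20.2% were called (9.72% higher and 10.5% lower), beside 12.5% of the members. Among the 6923 tested genes in the same range of mean CPM as the members it was 24.9%. The median log2 fold change of the members was 0.06 and that of all genes was 0, while the sizes of change, without sign, had medians of 0.13 and 0.19.

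For the 35 members that did not pass, the 95% intervals of the fold bound how large a difference could be. All 35 intervals lay between 0.744 and 1.38. Unadjusted p was under 0.05 for 14 of the 40 members, beside 6627 of all 18079 genes tested.

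**Figure D1:**
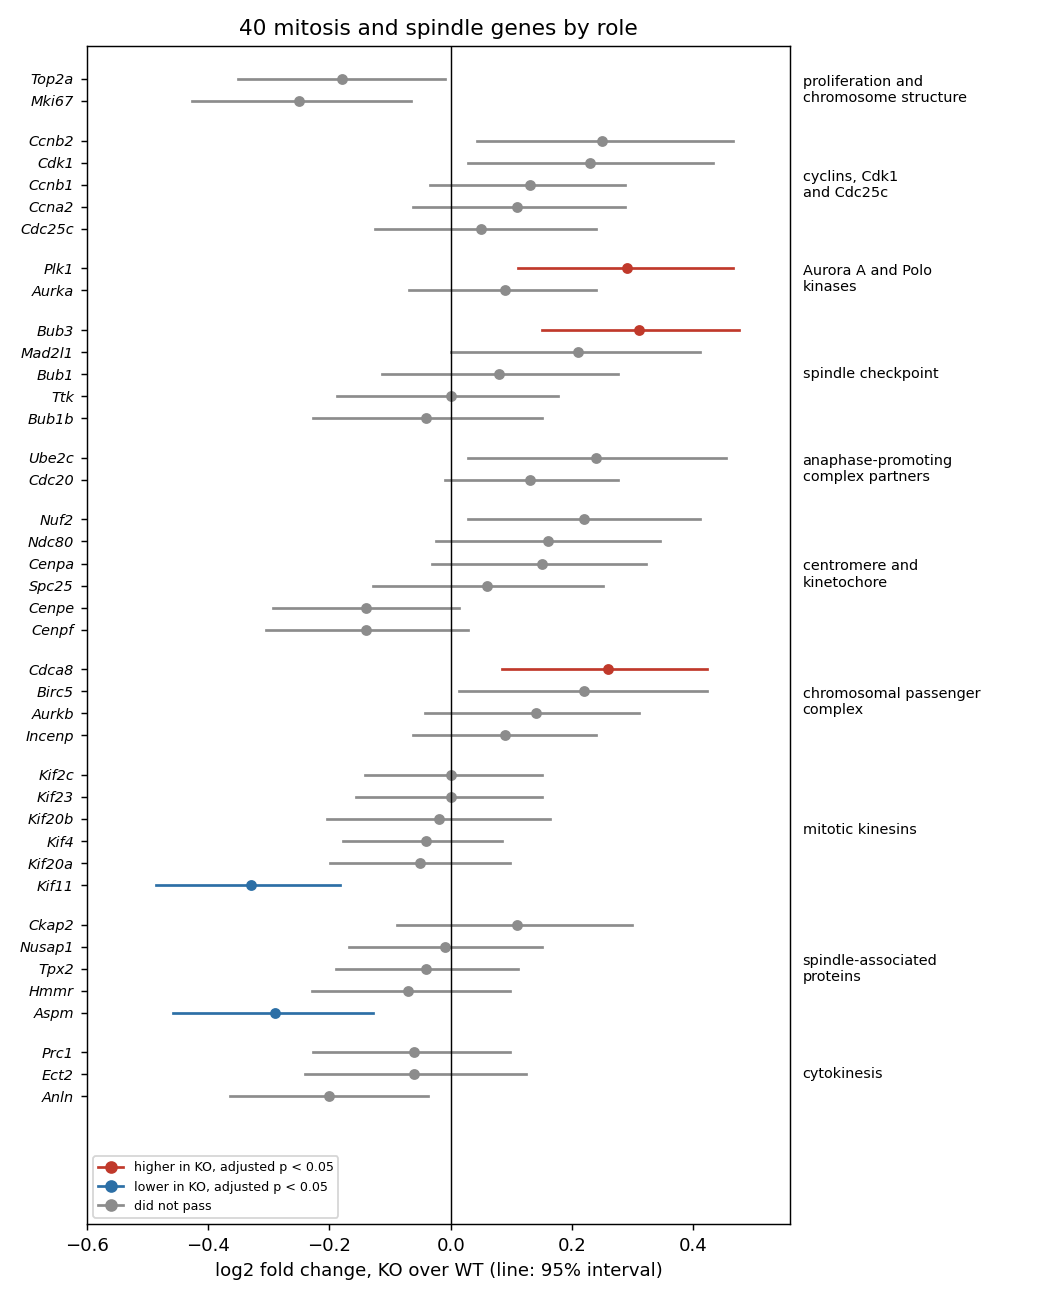
log2 fold change (KO over WT) of the 40 members grouped by role, with 95% intervals from the edgeR fit of 3 libraries each; red and blue mark members past an adjusted p of 0.05. Plk1, Bub3 and Cdca8 lie to the right, Kif11 and Aspm to the left, and no member's value lies outside -0.33 to 0.31.

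The cyclins and their kinase start mitosis. Cdk1, the kinase that triggers mitotic entry, had 91.9, 111 and 118 CPM in KO 1 to 3, against 98.7, 87 and 88.6 CPM in WT 1 to 3 (log2 fold change 0.23, SE 0.09, edgeR adjusted p = 0.105). KO 2 and KO 3 were above each WT library, and KO 1 was not. Ccnb2, a B-type cyclin gene, showed the same layout with 64.4, 80.2 and 78.2 CPM in KO 1 to 3 and 69.5, 58.5 and 58.7 CPM in WT 1 to 3 (0.25, SE 0.1, edgeR adjusted p = 0.0889). Ccnb1, the most abundant of this group by CPM and the main B-type cyclin of mitotic entry, averaged 181 ± 12.1 CPM in the pools labelled KO and 166 ± 12.6 CPM in WT (0.13, SE 0.07, edgeR adjusted p = 0.228). Ccna2, the A-type cyclin of S phase and G2, and Cdc25c, a phosphatase that activates Cdk1, had log2 fold changes of 0.11 and 0.05. All 5 values of the group were positive and none passed. Without KO 1, Ccnb1 (edgeR adjusted p = 0.0344), Ccnb2 (0.00446) and Cdk1 (0.000761) passed as higher, where the ranges over all 16 alternatives were 0.0344 to 0.547, 0.00446 to 0.267 and 0.000761 to 0.292.

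Plk1, the Polo kinase that drives centrosome maturation, kinetochore attachment and cytokinesis, rose. The gene (ENSMUSG00000030867, GRCm38 chromosome 7, 122159439 to 122169873, plus strand) had 108, 127 and 128 CPM in KO 1 to 3, against 107, 93.6 and 96.7 CPM in WT 1 to 3. The groups did not overlap, although KO 1 was only just above WT 1. The rise was 1.22-fold, or 0.29 on the log2 scale with an SE of 0.08 (edgeR adjusted p = 0.0345). Plk1 had log2 fold changes of 0.25 to 0.37 with any 1 library left out. It missed the threshold without KO 2 (edgeR adjusted p = 0.129), KO 3 (0.107), WT 2 (0.139) or WT 3 (0.12), in a range of 0.000265 to 0.139 over the alternatives. Aurka, the Aurora A kinase of the spindle poles, averaged 62.6 ± 4.69 CPM in the pools labelled KO and 58.9 ± 2.88 CPM in WT (0.09, SE 0.07, edgeR adjusted p = 0.391).

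The spindle checkpoint holds a cell in metaphase until all chromosomes are attached. Bub3, which carries the checkpoint kinases Bub1 and BubR1 to kinetochores, had 153, 167 and 179 CPM in KO 1 to 3, against 140, 125 and 137 CPM in WT 1 to 3. Each KO library was above each WT library, and Bub3 rose by 0.31 on the log2 scale (SE 0.07, 1.24-fold, edgeR adjusted p = 0.0181), the largest rise of the set. The gene lies on chromosome 7 (131560222 to 131571895, plus strand, ENSMUSG00000066979). Its call was lost without KO 2 (edgeR adjusted p = 0.0645), KO 3 (0.0584), WT 2 (0.0861) or WT 3 (0.0626), in a range of 0.000172 to 0.0861 over the alternatives. With any 1 library left out, the log2 fold change of Bub3 was 0.26 to 0.37. The other checkpoint members did not pass. Bub1 was at 69.8 ± 6.41 CPM in the pools labelled KO and 65.9 ± 6.77 CPM in WT, and Bub1b, the BubR1 gene, at 135 ± 6.57 and 138 ± 17.6 CPM. Ttk, the Mps1 kinase that starts checkpoint signalling, averaged 40.4 CPM in both groups (SD 3.49 and 3.25). Mad2l1, the Mad2 inhibitor of Cdc20, had a log2 fold change of 0.21 (SE 0.09, edgeR adjusted p = 0.134).

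The anaphase-promoting complex ends mitosis by marking cyclin B and securin for destruction. Cdc20, its activator, had the highest level per length of the 40 members, with 286 ± 1.27 TPM (a level per exonic length, scaled to the same total in each library) in the pools labelled KO and 279 ± 17.5 TPM in WT, and a log2 fold change by count of 0.13 with an SE of 0.06 (edgeR adjusted p = 0.161). Ube2c, the ubiquitin-conjugating enzyme of the complex, had 132, 163 and 169 CPM in KO 1 to 3, against 142, 125 and 126 CPM in WT 1 to 3 (0.24, SE 0.09, edgeR adjusted p = 0.0939). KO 1 again lay within the WT range. Without KO 1 both passed as higher (edgeR adjusted p = 0.0332 for Cdc20 and 0.000608 for Ube2c, in ranges of 0.0332 to 0.451 and 0.000608 to 0.262 over the alternatives).

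Kinetochore members split within the group. Nuf2, Ndc80 and Spc25, of the complex that grips microtubule ends, had log2 fold changes of 0.22, 0.16 and 0.06. Cenpa, the centromeric histone, was at 130 ± 12.2 CPM in the pools labelled KO and 117 ± 8.23 CPM in WT (0.15, SE 0.08, edgeR adjusted p = 0.211). Cenpe, a kinetochore kinesin, had 97.4, 104 and 99.7 CPM in KO 1 to 3, against 122, 105 and 105 CPM in WT 1 to 3 (-0.14, SE 0.07, edgeR adjusted p = 0.161). Cenpf, a large coiled-coil protein of the outer kinetochore, had 162, 157 and 160 CPM in KO 1 to 3, against 197, 167 and 164 CPM in WT 1 to 3 (-0.14, SE 0.07, edgeR adjusted p = 0.196). For Cenpe and Cenpf every KO library lay below every WT library, yet neither passed, and with the length trend described below removed the value of Cenpf was 0.08.

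The chromosomal passenger complex corrects wrong attachments and later guides cytokinesis. Cdca8, which encodes its subunit borealin (ENSMUSG00000028873, chromosome 4, 124918465 to 124939311, minus strand), had 112, 133 and 131 CPM in KO 1 to 3, against 112, 100 and 103 CPM in WT 1 to 3. KO 1 and WT 1 were equal to 3 digits, with KO 1 the higher. Cdca8 rose by 0.26 on the log2 scale (SE 0.08, 1.19-fold, edgeR adjusted p = 0.0422). Cdca8 had log2 fold changes of 0.21 to 0.33 with any 1 library left out. Its call rested on most of the libraries, as it passed without KO 1 and was lost without KO 2 (edgeR adjusted p = 0.156), KO 3 (0.12), WT 1 (0.0517), WT 2 (0.161) or WT 3 (0.138), with a range of 0.00029 to 0.161 over the alternatives. The other subunits, the scaffold Incenp (159 ± 8.07 CPM in the pools labelled KO and 149 ± 10.9 CPM in WT), Birc5, which encodes survivin (66.7 ± 7.74 and 57.2 ± 4.53 CPM), and the Aurora B kinase gene Aurkb (82.9 ± 7.62 and 75.4 ± 5.62 CPM), did not pass. Per length the 4 genes ran from 68.9 TPM for Birc5 to 135 TPM for Incenp over the 6 libraries.

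Kif11 and Aspm, which act on the spindle itself, fell. Kif11, the kinesin that pushes the spindle poles apart (ENSMUSG00000012443, chromosome 19, 37376403 to 37421859, plus strand), had 164, 169 and 159 CPM in KO 1 to 3, against 227, 197 and 196 CPM in WT 1 to 3. The groups were well separated, and Kif11 fell by 0.33 on the log2 scale (SE 0.07, 1.26-fold lower, edgeR adjusted p = 0.0113), the largest fall of the set. It passed under each of the 16 alternatives (edgeR, limma or DESeq2 adjusted p from 0.000315 to 0.0464). The other kinesins gave log2 fold changes between -0.05 and 0 without passing. These were Kif20a, Kif20b and Kif23 of the cleavage zone, the chromosome-bound Kif4 and the microtubule-shortening Kif2c. Kif23, a core motor of the central spindle, was at 96.7 ± 5.79 CPM in the pools labelled KO and 96.8 ± 6.92 CPM in WT.

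Aspm, a spindle pole protein whose loss causes primary microcephaly in humans (ENSMUSG00000033952, chromosome 1, 139454772 to 139494091, plus strand), had 122, 124 and 118 CPM in KO 1 to 3, against 165, 144 and 136 CPM in WT 1 to 3. No KO library reached the WT range, and Aspm fell by 0.29 on the log2 scale (SE 0.07, 1.23-fold lower, edgeR adjusted p = 0.024). Aspm had log2 fold changes of -0.35 to -0.2 with any 1 library left out. The call was lost without KO 2 (edgeR adjusted p = 0.0688), KO 3 (0.0838), WT 1 (0.0679) or WT 2 (0.0693), and after each library's trend on transcript length was removed (-0.11, edgeR adjusted p = 0.33, in a range of 0.0021 to 0.33). Tpx2, which activates Aurora A on the spindle, was the most abundant of its group at 202 ± 7.55 CPM in the pools labelled KO and 208 ± 16.7 CPM in WT. Nusap1, Hmmr and Ckap2, other spindle-bound proteins, had values from -0.07 to 0.11.

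**Figure D2:**
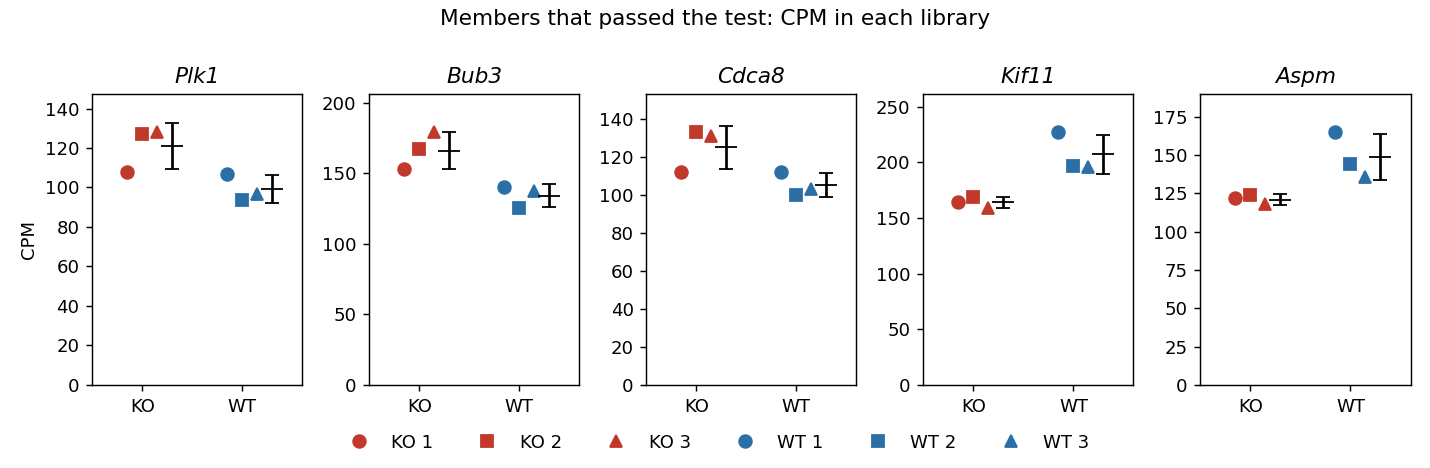
CPM of the 5 members that passed the test, in each of 3 KO and 3 WT libraries (marker shape is the replicate number, black bar the mean with SD, vertical axes start at 0). Plk1 and Cdca8 of KO 1 lie beside those of WT 1, whereas Kif11 and Aspm of each KO library lie below each WT library.

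Mki67 and Top2a, the usual markers of proliferating cells, were the most abundant members by CPM. Mki67, which coats mitotic chromosomes, had 447, 468 and 448 CPM in KO 1 to 3, against 608, 511 and 497 CPM in WT 1 to 3 (log2 fold change -0.25, SE 0.08, edgeR adjusted p = 0.0585). Top2a, the topoisomerase that untangles sister chromatids, had 617, 630 and 581 CPM in KO 1 to 3, against 762, 659 and 649 CPM in WT 1 to 3 (-0.18, SE 0.08, edgeR adjusted p = 0.119). In both genes all KO libraries lay below all WT libraries without passing. Mki67 passed as lower in 3 of 16 alternatives, among them DESeq2 (adjusted p = 0.0254). With the length trend removed its value was -0.08 (edgeR adjusted p = 0.532, in a range of 0.0254 to 0.532). In cytokinesis, Anln, the anillin of the contractile ring, averaged 53.3 ± 2.69 CPM in the pools labelled KO and 61.3 ± 5.19 CPM in WT (-0.20, SE 0.07, edgeR adjusted p = 0.0782). Prc1, which bundles midzone microtubules, was at 146 ± 7.98 and 152 ± 13.8 CPM, and Ect2, the exchange factor that activates RhoA, at 92.1 ± 5.32 and 95.9 ± 10.3 CPM.

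In 10 of the 40 members the groups did not overlap (3 higher and 7 lower in the pools labelled KO), or 25%, against 39.9% of all genes tested (20.3% higher and 19.6% lower).

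The direction of a member's difference moved with the length of its coding sequence. Across the 40 members, log2 fold change and coding length had a Spearman rank correlation of -0.80, and with exonic length it was -0.55. All 10 members with the shortest coding sequences (444 to 1194 bases, among them Birc5, Ube2c, Cdk1, Bub3 and Cdca8) had positive values, with a median of 0.22. Of the 10 longest (3156 to 9531 bases, among them Kif11, Top2a, Cenpe, Cenpf, Aspm and Mki67) 9 had negative values, with a median of -0.16. Other genes showed the relation as well. The rank correlation with coding length was -0.61 over 151 other mitosis genes -0.50 over 6844 coding genes in the members' range of CPM, and -0.34 over all 14565 coding genes tested. These genes share the same 6 libraries, so the values describe the libraries and carry no p.

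After each library's trend on exonic length was removed, a step added after the data had been seen, 4 members were higher and 1 was lower, beside 14.1% and 8.25% of all genes (22.3% in either direction). The split of all calls was then 2539 higher and 1487 lower, beside 1758 and 1897 without this step. Of the 5 calls, 4 remained and Aspm was lost, while Nuf2 was added (0.32, edgeR adjusted p = 0.0316, in a range of 0.0181 to 0.293 over the alternatives). The median of the 10 longest members became -0.02 and that of the 10 shortest 0.23. Over the members a rank correlation of -0.27 with exonic length remained, against -0.01 over all genes tested. What part transcript length or RNA quality plays in the members' values was not tested further.

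**Figure D3:**
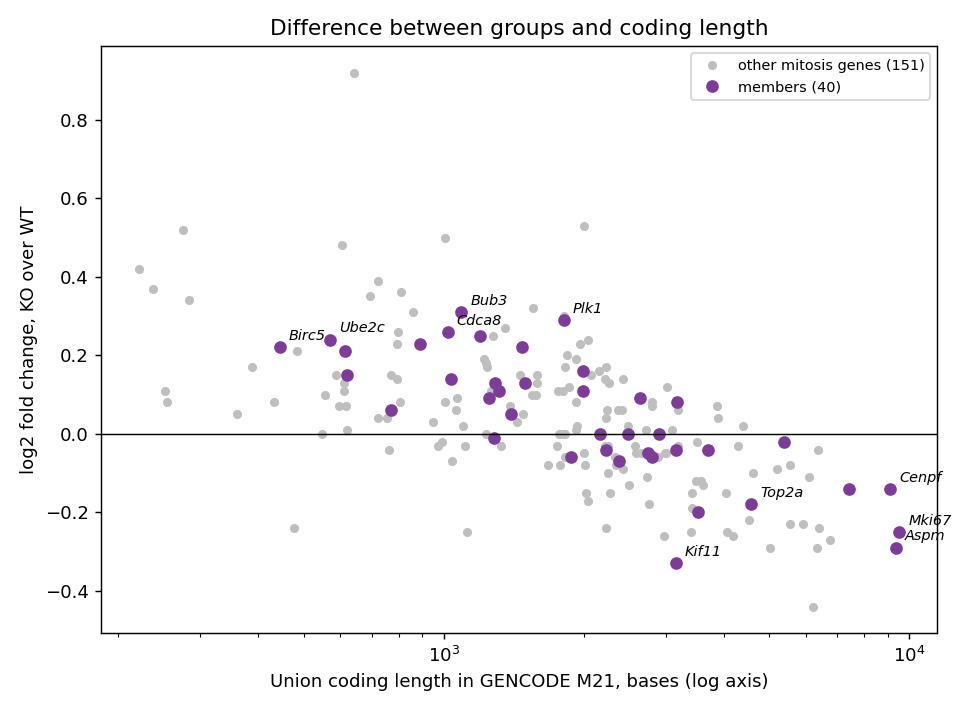
log2 fold change (KO over WT) against union coding length on a log axis, for the 40 members (purple) and 151 other mitosis genes (grey). The shortest members, such as Birc5 and Ube2c, lie above 0 and the longest, such as Aspm and Mki67, below it.

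The members varied together from library to library. All 40 were higher in WT 1 than in WT 2 and WT 3. Among the KO libraries 32 members were highest in KO 2 and 32 were lowest in KO 1. With group means removed, the pairs of members had a median Pearson r of 0.83 over the 6 libraries, and 99.6% of the 780 pairs were positive. The points share libraries and scaling, so this is a description. The median deviation of the members from the WT mean was -0.03, 0.14 and 0.05 (log2) in KO 1 to 3 and 0.12, -0.06 and -0.07 in WT 1 to 3. WT 1 also had the highest level of 30 DNA replication and S-phase genes among the WT libraries (median deviation 0.12, against -0.06 in both others), and 1 of 20 postmitotic neuron genes was above the WT mean there. The part of these in the members' values was not tested.

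Leaving out KO 1 changed the members' count more than any other choice. Without it 16 members were higher and 3 lower, and all 5 members called with 6 libraries were among them. The background rose too, as 20.6% of 18213 genes were then higher and 20.9% lower. The members called as higher made up 40% of the list, and those added were Ccnb1, Ccnb2, Cdk1, Aurka, Mad2l1, Cdc20, Ube2c, Cenpa, Ndc80, Nuf2, Aurkb, Birc5 and Ckap2. Anln was added as lower. Of the members whose values are not given above, the edgeR adjusted p without KO 1 was 0.0329 for Aurka, 0.0107 for Mad2l1, 0.00725 for Cenpa, 0.00274 for Ndc80, 0.0275 for Nuf2, 0.0184 for Aurkb, 0.00181 for Birc5, 0.0422 for Ckap2 and 0.0381 for Anln. The highest adjusted p over the alternatives was 0.72 for Aurka, 0.379 for Mad2l1, 0.521 for Cenpa, 0.442 for Ndc80, 0.293 for Nuf2, 0.602 for Aurkb, 0.328 for Birc5, 0.787 for Ckap2 and 0.62 for Anln, so each of these calls was lost elsewhere. Calls over all genes fell when another library was left out, and those of the members did too. Without KO 2 there were 0 members higher and 1 lower, beside 3.12% and 4.17% of all genes. Without KO 3 there were 0 and 1, beside 3.31% and 4.31%. Without WT 1 there were 2 and 1, beside 4.44% and 6.31%. Without WT 2 there were 0 and 1, beside 2.59% and 3.9%, and without WT 3 there were 0 and 2, beside 2.49% and 3.91%. With no filter on low counts 9 members were higher and 3 lower, beside 7.16% and 6.5% of the 31934 genes then tested.

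**Figure D4:**
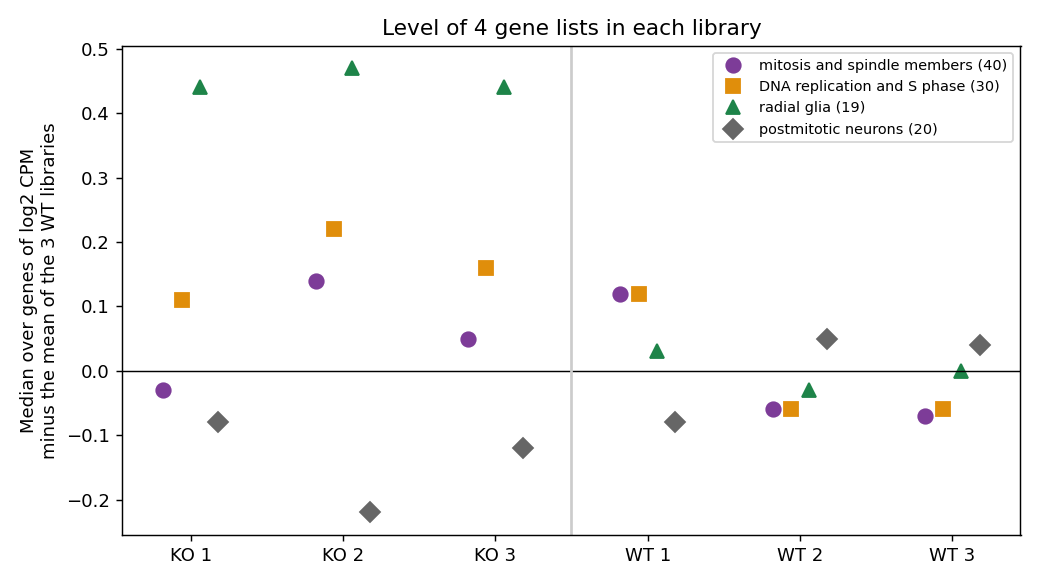
Median over the genes of 4 lists of log2 CPM minus the mean of the 3 WT libraries, in each KO and WT library. The mitosis members overlap between groups, from -0.03 to 0.14 in KO and from -0.07 to 0.12 in WT, whereas radial glia genes are at 0.44 to 0.47 in all 3 KO libraries.

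Among progenitor markers most genes were called. Of 19 radial glia genes 12 rose (63.2%, against 9.72% of all genes) and 1 fell, with a median log2 fold change of 0.55. Their summed level was 4423 to 4820 CPM in the pools labelled KO and 3322 to 3502 CPM in WT, without overlap. Among those that rose were Sox9, a progenitor transcription factor (124 ± 6.14 CPM in the pools labelled KO and 80.3 ± 1.68 CPM in WT, edgeR adjusted p = 0.00021), and the endothelin receptor gene Ednrb (150 ± 5.07 and 101 ± 4.41 CPM, edgeR adjusted p = 0.000332). The 1 that fell was Slc1a3 (40.7 ± 5.51 and 63.9 ± 3.08 CPM, edgeR adjusted p = 0.00201). Of 30 replication genes 5 rose (16.7%, against 9.72% of all genes tested and 13.7% of those in the members' range of CPM) and 0 fell, with a median of 0.15, and 27 of the 30 values were positive. Gins2, of the replicative helicase, rose 1.34-fold and Ung, a uracil glycosylase gene, by 0.30 on the log2 scale (edgeR adjusted p = 0.0172 and 0.027). Of 20 postmitotic neuron genes 7 fell (35%, against 10.5% of all genes) and 1 rose, with a median of -0.14. The direct test of a difference between these lists and the members was not made.

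Other cycling or vascular cell types can add mitotic RNA to the tissue. Red blood cell genes summed to 1008 to 1610 CPM in the pools labelled KO and 662.2 to 724.6 CPM in WT, with 5 of 12 tested members higher and 2 lower. Endothelial genes summed to 172.3 to 207.2 CPM and 228.5 to 231.6 CPM (3 of 10 lower), pericyte genes to 195.5 to 262.7 CPM and 240.4 to 252.9 CPM (7 of 8 lower), and microglial genes to 35.58 to 41.57 CPM and 44.25 to 45.94 CPM (2 of 10 lower). The cortical excitatory list, from tissue beside the MGE, summed to 83.98 to 137.2 CPM and 44.39 to 79.68 CPM (6 of 12 higher). Beside these counts, 9.72% of all genes tested were higher and 10.5% lower. Pericyte genes were lower in 87.5% of their list and microglial genes in 20%. No marker of these lists was at 0 in any library, and the red cell factor Gata1 was too low to test. Their part in the members' values was not tested.

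A wider list of the mitotic programme was measured in the same libraries. Of 153 other mitosis genes 151 were tested, of which 13 rose and 8 fell (13.9% called, against 20.2% of all genes), with a median log2 fold change of 0.04. Without KO 1 these counts were 42 and 20, beside 20.6% of all genes higher and 20.9% lower. With any other library left out they were 1 to 10 higher and 1 lower. The shares of all genes were then 2.49% to 4.44% higher and 3.9% to 6.31% lower. The counts of the list therefore rest on which libraries are used, as do those of all genes. Foxm1 and Mybl2 did not pass. Foxm1 had 134, 140 and 136 CPM in KO 1 to 3, against 167, 147 and 142 CPM in WT 1 to 3 (-0.15, SE 0.07, edgeR adjusted p = 0.142), and Mybl2 had 51.8 ± 1.27 CPM in the pools labelled KO and 50.4 ± 1.22 CPM in WT (0.04, SE 0.05, edgeR adjusted p = 0.618). In the same list of 20 factors Rbbp4, a histone-binding subunit of MuvB, rose 1.19-fold, and E2f5, a repressor of the E2F family, rose 1.41-fold (36.9 ± 6.09 and 26.1 ± 1.19 CPM, edgeR adjusted p = 0.0168). Rbl2, the p130 pocket protein of resting cells, and Nfya, the DNA-binding subunit of NF-Y, were each 1.19-fold lower (edgeR adjusted p = 0.0243 and 0.0322).

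Among 36 other centromere and kinetochore genes 3 rose and 0 fell, and the share that rose, 8.33%, was near the 9.72% of all genes. Cenpw had 11.3, 14.9 and 13.5 CPM in KO 1 to 3, against 10.4, 8.63 and 8.55 CPM in WT 1 to 3 (0.52, SE 0.12, edgeR adjusted p = 0.0207). Cenph, of the same inner kinetochore network, rose 1.31-fold. Spc24, the partner of Spc25, rose 1.39-fold (42 ± 6.77 and 30.1 ± 4.02 CPM, edgeR adjusted p = 0.0323). Of 13 condensin and cohesin genes 2 fell (15.4%, against 10.5% of all genes) and 0 rose. These were the condensin subunit genes Ncapd2 (399 ± 31.8 CPM in the pools labelled KO and 479 ± 38.6 CPM in WT, edgeR adjusted p = 0.047) and Ncapd3 (65.4 ± 4.71 and 76 ± 3.64 CPM, edgeR adjusted p = 0.0482).

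In the list of entry and exit control 2 of 19 tested genes rose, or 10.5%, near the 9.72% of all genes. These were Cdc25a, the phosphatase of the G1/S and G2/M steps (87.6 ± 3.8 CPM in the pools labelled KO and 70.2 ± 3.57 CPM in WT, edgeR adjusted p = 0.00833), and the Cdk1 partner gene Cks1b (66.4 ± 9.38 and 52.4 ± 4.65 CPM, edgeR adjusted p = 0.0456). Of 14 anaphase-promoting complex subunits only Anapc13 was called, as higher (7.14% of the list, 1.34-fold, edgeR adjusted p = 0.0167). None of 10 centrosome genes of primary microcephaly passed in edgeR, and their median was -0.10. Of these 10, 3 had an unadjusted p under 0.05, beside 6627 of all 18079 genes tested. In spindle orientation 2 of 10 tested genes rose (20%), the Numb-like gene Numbl (1.23-fold) and Gpsm2, the LGN adaptor of the dividing cell's cortex (1.18-fold, edgeR adjusted p = 0.0489).

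The list of other spindle, kinesin and cytokinesis genes held calls both ways, with 3 of 29 higher (10.3%) and 4 lower (13.8%), near the 9.72% and 10.5% of all genes. Shcbp1, a midbody protein gene, had 37.6, 46.2 and 40.5 CPM in KO 1 to 3, against 29.3, 27.5 and 29 CPM in WT 1 to 3 (0.53, SE 0.08, edgeR adjusted p = 0.00329). Cit, the citron kinase of the midbody, had 65.1, 53.7 and 52.6 CPM in KO 1 to 3, against 79.4, 78.3 and 74.4 CPM in WT 1 to 3 (-0.44, SE 0.08, edgeR adjusted p = 0.00806). Neither gene's groups overlap. Pimreg rose 1.28-fold and Ckap2l, a spindle protein gene, was 1.18-fold lower (edgeR adjusted p = 0.022 and 0.0304).

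Per length, levels within the 40 members ran from 22.5 TPM (Kif20b) to 282 TPM (Cdc20) over the 6 libraries, with a median of 77.9 TPM. After Cdc20 came Top2a (274 TPM), Ube2c (208 TPM), Plk1 (189 TPM) and Mki67 (188 TPM). The lowest were Kif20b, Cdc25c (23 TPM), Anln (24.1 TPM) and Ndc80 (25.3 TPM). Exonic length is the union over annotated transcripts, so a gene with long rare exons, such as Mad2l1 (33.2 TPM over 8390 exonic bases), is set low.

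Some members share sequence with other genes. Without a stated strand setting, reads cannot be told apart where exons lie opposite each other, which covers 29.3% of the exonic bases of Kif20a (with Cdc23), 22.77% of Ube2c (with Tnnc2), 15.09% of Kif4 (with Pdzd11), 12.67% of Cdc25c, 12.49% of Ccna2 (with Exosc9) and 11.08% of Prc1 (with Rccd1). Plk1 shares 7.09% with an unnamed antisense model. Among similar copies, Ccnb1-ps had 161 counts beside 44204 for Ccnb1, with 641 for Plk-ps1 beside 28278 for Plk1, and 87 for Gm15697 beside 46822 for Kif11. For Ndc80, whose values are uncertain for this reason, the related 2700099C18Rik and Gm1976 had 3956 and 2936 counts beside its 11108. Shorter stretches of Hmmr and Cenpf also matched other expressed genes.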

How the data were processed

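Total RNA from pools of 3 embryos (6 MGEs) was sequenced in 6 libraries. The submitters' processing notes name GRCm38, Trimmomatic 0.36, STAR 2.5.2b, Subread 1.5.2, featureCounts and DESeq2, with no annotation release or strand setting. Each test started from the table of unnormalized counts, by Ensembl gene, that the authors deposited. A normalized table with 2 columns of 1 name was not used.

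Symbols, positions and lengths came from GENCODE M21 (GRCm38), which matched 49056 of 49315 gene IDs, and promoter windows from RefSeq (GRCm38.p6). After filterByExpr (minimum count 10, minimum total 15) and TMM scaling, KO and WT libraries entered edgeR 4.0.16 (R 4.3.3) and its quasi-likelihood test with robust estimation, with Benjamini-Hochberg adjustment over all 18079 genes and a threshold of 0.05. Intervals of a fold are at 95%, from the same fit. The common biological coefficient of variation was 9.52%. On simulated counts made for this comparison, with 17840 genes in the test, 75% of the genes set to change 1.5-fold were called, and 99% of those set to 2-fold. Each fold was set in 100 genes with a mean count of at least 50, and no other gene was set to change. In the data 20.2% of genes were called, and every member had at least 968 counts per library. The simulated shares therefore do not give the power for the members. Libraries are separate pools per the labels.

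The members and lists were chosen with earlier results of these data known. Named were each called member, in each role group the member with the highest mean CPM and that with the smallest p, up to 4 called genes of each other mitosis list and up to 2 of each context list, with Foxm1 and Mybl2. The values of further members within their role, and those of Slc1a3, were added after they had been seen. The context lists covered replication, radial glia, subventricular zone progenitors, neurons, MGE identity, the lateral and caudal eminences, cortex and 4 blood and vascular lists. The comparison was unpaired, as no label ties a KO pool to a WT pool. Alternatives were other scalings (RLE, upper quartile, total counts), other filters (none, or a minimum count of 50), DESeq2 1.42.0, limma 3.58.1 voom, no robust estimation, the replicate number as a block and each library left out. Removal of each library's loess trend on exonic length was added after the data had been seen. Similar transcripts were found with blastn.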

Additional observations from a re-analysis of the deposited data

How the results depend on the processing

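Kif11 kept its direction and its call under all 16 alternatives. Over 640 pairs of member and alternative, the call was as before in 596, gained in 24 and lost in 20. Other scalings, the stricter filter, limma voom and no robust estimation gave 3 members higher and 2 or 3 lower. With no filter on low counts 9 members were higher, beside 7.16% of 31934 genes. The length correction gave 1 member lower, and 20 other mitosis genes higher and 2 lower. Of all genes, 14.1% were then higher and 8.25% lower. The cause was not tested. Leaving out 1 library gave 0 to 16 members higher and 1 to 3 lower, 1 to 42 other mitosis genes higher and 1 to 20 lower, and 464 to 3752 of all genes higher and 727 to 3804 lower, each highest without KO 1 and on fewer samples. The median of the members ran from -0.001 to 0.12 in those fits. The replicate number as a block called 3 members, all among the 5 called without it and 1 of them as higher. Under the block 6 other mitosis genes were higher, and 862 genes in all were higher and 1219 lower. Plk1 (edgeR adjusted p = 0.0893) and Cdca8 (0.1) missed the threshold under it. Deviations of same-numbered KO and WT libraries correlated at -0.076, -0.123 and 0.026, so the numbers gave no sign of pairing. At this depth and 3 pools a group, 75% of simulated 1.5-fold changes were called, in genes with a mean count of at least 50. Every member had at least 968 counts per library, so this share does not give the power for the members.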

Other observations

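In the lists of regional identity and subventricular zone progenitors, named here as values only, Dll1, a Notch ligand gene of newly committed progenitors, rose (138 ± 12 CPM in the pools labelled KO and 85.3 ± 2.69 CPM in WT, edgeR adjusted p = 0.000352), with 6 of 12 subventricular zone genes higher and 2 lower. Of 12 MGE identity genes 2 rose and 5 fell, among them Maf (32.6 ± 1.77 and 85 ± 10.9 CPM, edgeR adjusted p = 4.04e-05). In the list for the lateral and caudal eminences 2 of 15 rose (13.3%) and 8 fell (53.3%), among them Ikzf1 (1.58 ± 0.203 and 6.34 ± 1.51 CPM, edgeR adjusted p = 0.000334). Beside the counts of these lists, 9.72% of all genes tested were higher and 10.5% lower.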
